A study of Mus musculus with 2 samples.

Results

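The 10 genes described here encode receptors, and 1 ligand, that tune the activation of T cells: Cd28, Icos, Ctla4, Pdcd1, Tigit, Lag3, Tnfrsf4, Tnfrsf18, Tnfrsf9 and Cd40lg. They were chosen by name and are 10 of the 26981 genes listed in the files of the series. CD45+ cells, which are immune cells, were separated with magnetic beads from visceral adipose tissue (VAT) of C57BL/6 wild type mice at 15 weeks of age. Normal water (NW) mice were the controls, and antibiotics (ABX) mice received antibiotics, which the methods describe as a cocktail of vancomycin, ampicillin, colistin and streptomycin in the drinking water of SPF mice. Each condition has 1 library, prepared by BD Rhapsody whole transcriptome analysis together with antibodies that carry sequence tags (AbSeq), and how many mice stand behind a library is not given in the sources used here. The comparison asks how depletion of the gut microbiota alters the immune cells of VAT.

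A molecule is counted as a UMI (unique molecular identifier). After filters, 12474 cells of NW (median depth 5092 UMIs) and 12724 of ABX (3845.5 UMIs) were kept, and 196 cell barcodes occurred in both libraries. A level is given as CPM, that is, the UMIs of a gene per 1000000 UMIs of all genes, both summed over the cells of a class. Brackets after a level or ratio hold exact 95% Poisson intervals, and those after a share of cells hold exact (Clopper-Pearson) 95% binomial intervals. They describe counting error and nothing else. As each condition has 1 library, the spread between mice is unknown, so no test was made, and every difference below is one between 2 libraries, in which library and condition cannot be told apart.

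A T cell needs a signal beside that of its antigen receptor. CD28 and ICOS give it when they meet CD80, CD86 or ICOSL on antigen-presenting cells, while CTLA-4 competes for the ligands of CD28, and PD-1 (Pdcd1), TIGIT and LAG-3 dampen the response. OX40 (Tnfrsf4), GITR (Tnfrsf18) and 4-1BB (Tnfrsf9) are TNF receptor family members that promote survival, and CD40L (Cd40lg) is the T cell ligand that activates CD40 on B cells and dendritic cells. Regulatory T (Treg) cells of VAT, many of which carry the IL-33 receptor ST2 (Il1rl1), and group 2 innate lymphoid cells (ILC2s) are both known for GITR, ICOS and PD-1 on their surface.

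In build GRCm38 with the GENCODE vM21 annotation, Cd28 (chr1:60716800-60773359), Ctla4 (chr1:60887000-60915832) and Icos (chr1:60977927-61000320) lie side by side on chromosome 1, on the plus strand. They are 113.6 and 62.1 kb apart, with 0 protein-coding genes between them. Pdcd1 (chr1:94038305-94052553) is farther along the same chromosome. Tnfrsf4 (chr4:156013843-156016612) and Tnfrsf18 (chr4:156026164-156028895) are 9.6 kb apart on chromosome 4, which also holds Tnfrsf9 (chr4:150914562-150946102). Tigit is at chr16:43648867-43664146, Lag3 at chr6:124904361-124911705 and Cd40lg at chrX:57212143-57224042. The Ctla4 locus overlaps the pseudogene Rpl18-ps1, and that of Icos Gm37039, on the same strand. The Tnfrsf9 locus overlaps Camta1, and that of Tnfrsf18 the antisense gene Gm16008, both on the opposite strand. Whether the counting used the strand is not given in the sources used here, so UMIs of these overlapping genes could be mixed.

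The RefSeq promoter table holds entries for 6 of the 10 genes (Ctla4, Pdcd1, Tigit, Tnfrsf4, Tnfrsf18 and Tnfrsf9). The 3 of these that were at least 1.5-fold lower in ABX Treg-like cells are shown with their start regions. Each runs 5′ to 3′ from 250 bases before to 50 bases after the annotated start in GRCm38.p6: Ctla4 at chr1:60908775-60909074 (plus strand), Pdcd1 at chr1:94052504-94052803 (minus strand) and Tnfrsf18 at chr4:156026072-156026371 (plus strand). Capitals mark matches, on either strand, to GGAAA (read as TTTCC on the other strand), the core that NFAT factors bind downstream of the T cell receptor.
Ctla4: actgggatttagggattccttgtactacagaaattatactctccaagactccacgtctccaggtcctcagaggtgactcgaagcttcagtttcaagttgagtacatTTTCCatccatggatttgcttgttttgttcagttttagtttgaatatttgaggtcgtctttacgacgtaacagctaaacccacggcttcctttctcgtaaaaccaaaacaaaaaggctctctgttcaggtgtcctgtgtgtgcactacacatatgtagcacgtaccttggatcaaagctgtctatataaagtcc
Pdcd1: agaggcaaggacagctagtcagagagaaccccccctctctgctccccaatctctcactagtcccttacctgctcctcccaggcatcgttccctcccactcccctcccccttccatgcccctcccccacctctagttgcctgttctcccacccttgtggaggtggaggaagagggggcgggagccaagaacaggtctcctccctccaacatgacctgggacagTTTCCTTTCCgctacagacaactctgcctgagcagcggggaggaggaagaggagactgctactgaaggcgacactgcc
Tnfrsf18: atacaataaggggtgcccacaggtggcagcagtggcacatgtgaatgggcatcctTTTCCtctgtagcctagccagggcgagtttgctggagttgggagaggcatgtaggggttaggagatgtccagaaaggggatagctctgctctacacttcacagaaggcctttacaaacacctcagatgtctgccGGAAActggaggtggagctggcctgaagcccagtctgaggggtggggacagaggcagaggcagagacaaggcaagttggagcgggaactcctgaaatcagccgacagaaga
All 3 windows hold the core, at bases 107 to 111 of Ctla4, 223 to 227 and 228 to 232 of Pdcd1, and 56 to 60 and 190 to 194 of Tnfrsf18. So do 61.3% of the 32851 windows in the table, and a match is a description only. None of the 3 held the AP-1 motif TGANTCA, the NF-κB motif (which can overlap GGAAA on the other strand), the forkhead motif TGTTTAC or the GATA motif AGATAA, each searched on both strands. These occur in 7.81%, 5.56%, 3.65% and 11.2% of all windows.

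Cells were grouped by clustering of mRNA and 8 antibodies with the 10 genes left out, and clusters were named from marker genes as a cell type "-like". Treg-like cells numbered 412 and 168 in NW and ABX, CD4+ T-like cells 686 and 673, CD8+ T-like cells 161 and 301, γδ T-like cells 243 and 287, NKT-like cells 213 and 320, NK-like cells 426 and 601, ILC2-like cells 758 and 1246, B cell-like cells 406 and 969 and plasma cell-like cells 164 and 258. A T cell cluster led by Il18r1, with a Cd3e UMI in 92.0% and 92.9% of its 87 and 196 cells and few Cd4 or Cd8a UMIs, stayed unnamed and is called Il18r1-led T. Some classes had their defining marker in most cells. Foxp3 UMIs were found in 85.4% and 65.5% of NW and ABX Treg-like cells and Trdc in 93.8% and 91.6% of γδ T-like cells. Ncr1 was found in 76.1% and 70.2% of NK-like cells and Gata3 in 89.4% and 86.2% of ILC2-like cells. CD8+ T-like cells were less clearly marked, with Cd8a in 50.9% and 54.2% of NW and ABX cells and Cd4 in 14.3% and 8.31%. NKT-like cells had Cd3e in 85.4% and 82.8% of NW and ABX cells. They also had Ncr1 in 22.1% and 28.4%, and Trdc in 43 NW and 64 ABX cells. The part of such cells in the ratios of these 2 classes was not tested. The lower share of Foxp3 UMIs in ABX Treg-like cells stands beside fewer UMIs per cell (medians of 3365 and 2592.5), and after thinning to 1000 UMIs per cell, which leaves out shallower cells, it was 60.8% and 51.1%. Jchain, an abundant plasma cell mRNA, had a UMI in 13.6% to 23.3% of the cells of each class of lymphocytes other than plasma cells, which gives the scale of free RNA for an abundant gene.

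For the receptors, the share of macrophage-like cells with a UMI, in cells with medians of 5668 and 4081 UMIs, served as the level of free RNA. It was 1.21% (NW) and 0.643% (ABX) of macrophage-like cells for Ctla4, 4.16% (NW) and 3.25% (ABX) for Icos, 1.05% (NW) and 0.563% (ABX) for Pdcd1, 0.350% (NW) and 0.342% (ABX) for Tigit and 0.892% (NW) and 1.17% (ABX) for Lag3. It was 1.26% (NW) and 0.663% (ABX) for Tnfrsf4, 2.99% (NW) and 2.85% (ABX) for Tnfrsf18, 0.560% (NW) and 0.321% (ABX) for Tnfrsf9 and 0.262% (NW) and 0.241% (ABX) for Cd40lg. Cd28 stood out, with 9.10% (NW) and 12.0% (ABX) of macrophage-like cells, which is above its share of B cell-like cells (4.19% (NW) and 2.48% (ABX)), so B cell-like cells, with medians of 4333.5 and 4016 UMIs, are the background for that gene.

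Cd28, the receptor of the primary co-stimulatory signal, had its highest level in CD4+ T-like cells, at 323 CPM in NW (302 to 344, 945 UMIs) and 250.2 CPM in ABX (232 to 269, 709 UMIs). NKT-like cells followed at 252 and 234 CPM in NW and ABX, a range that overlaps that of CD4+ T-like cells. CD8+ T-like cells (199 and 159 CPM) and Treg-like cells (152 and 177 CPM) also overlapped each other. Plasma cell-like cells, which are no T cells, had 144 CPM in NW (129 to 161, 317 UMIs) and 112 CPM in ABX (101 to 125, 334 UMIs), with a UMI in 67.1% (NW) and 53.5% (ABX) of cells. These are deep cells (medians of 13806.5 and 11469.5 UMIs), and after thinning the share was 12.7% and 9.34%, against 0.852% and 0.442% in B cell-like cells. γδ T-like cells had a Cd28 UMI in 3.70% (NW) and 0.697% (ABX) of cells, at or below the background, whereas the Il18r1-led T cells had one in 27.6% (NW) and 20.4% (ABX) of cells.

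Icos, which is induced on activated T cells, had its highest levels in 2 classes, the Il18r1-led T cells, at 313 CPM in NW (259 to 376, 116 UMIs) and 342 CPM in ABX (299 to 389, 229 UMIs), and Treg-like cells, at 389 CPM in NW (361 to 419, 689 UMIs) and 242 CPM in ABX (204 to 286, 141 UMIs). Their ranges overlapped, and Treg-like cells were the higher of the 2 in NW and the lower in ABX. γδ T-like (189.8 and 199.6 CPM), ILC2-like (133 and 151 CPM) and CD4+ T-like cells (115 and 119 CPM) followed in this order with ranges apart. The lowest levels were those of plasma cell-like (10.9 and 7.39 CPM) and B cell-like cells (6.29 and 4.59 CPM).

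Ctla4, the inhibitory rival of Cd28, was highest in Treg-like cells, at 590.1 CPM in NW (555 to 627, 1045 UMIs) and 273 CPM in ABX (232 to 319, 159 UMIs). A UMI was found in 72.6% (NW, 68.0% to 76.8%) and 44.6% (ABX, 37.0% to 52.5%) of Treg-like cells, and after thinning in 42.5% and 25.2%. The next class in order was not one of T cells: plasma cell-like cells had 55.0 CPM in NW (45.6 to 65.7, 121 UMIs) and 63.8 CPM in ABX (55.1 to 73.6, 190 UMIs), in a range that overlaps that of CD4+ T-like cells (56.7 and 33.5 CPM). B cell-like cells had 28.8 and 17.3 CPM and a UMI in 8.62% (NW) and 5.57% (ABX) of cells, above the share in macrophage-like cells. ILC2-like (8.40 and 2.22 CPM) and NK-like cells (6.53 and 2.92 CPM) were lowest and overlapped.

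Pdcd1, which encodes PD-1, was highest in γδ T-like cells, at 650.5 CPM in NW (601 to 703, 641 UMIs) and 547 CPM in ABX (499.7 to 598, 488 UMIs), with a UMI in 70.8% (NW, 64.6% to 76.4%) and 53.7% (ABX, 47.7% to 59.5%) of cells. ILC2-like cells, at 258 CPM in NW (241 to 276, 860 UMIs) and 174 CPM in ABX (162 to 186, 782 UMIs), and Treg-like cells, at 295 CPM in NW (270.0 to 321, 522 UMIs) and 125 CPM in ABX (98.3 to 158, 73 UMIs), overlapped each other and lay below γδ T-like cells in both libraries. CD8+ T-like cells had only 30.5 and 17.5 CPM, and 8 of their 21 NW UMIs came from 1 cell. NKT-like cells (10.8 and 0.868 CPM) had a UMI in 2.35% (NW) and 0.312% (ABX) of cells, and the 1 UMI of ABX leaves them at the background.

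Tigit, an inhibitory receptor for CD155 shared by T and NK cells, was highest in Treg-like cells, at 159 CPM in NW (141 to 178, 281 UMIs) and 120.2 CPM in ABX (93.7 to 152, 70 UMIs). NK-like cells, at 40.5 CPM in NW (31.1 to 51.9, 62 UMIs) and 45.8 CPM in ABX (37.0 to 56.0, 94 UMIs), came next, with ranges apart from Treg-like cells and from CD4+ T-like cells (35.2 and 38.1 CPM). Lag3, an inhibitory receptor for MHC class II, had few UMIs in T cells: Treg-like cells had 3.95 and 13.7 CPM on 7 NW and 8 ABX UMIs, and CD8+ T-like cells 1 NW and 3 ABX UMIs. No Lag3 UMI was found in 243 NW and 287 ABX γδ T-like cells, which allows shares of cells with a UMI of up to 1.23% and 1.05%. Its highest level was that of plasma cell-like cells, at 19.99 CPM in NW (14.5 to 26.8, 44 UMIs) and 22.2 CPM in ABX (17.2 to 28.2, 66 UMIs), with a UMI in 20.1% (NW, 14.3% to 27.1%) and 19.4% (ABX, 14.7% to 24.7%) of cells and, after thinning, in 2.02% and 2.53%, against 0.147% and 0.321% of macrophage-like cells.

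Of the TNF receptor family, Tnfrsf18 (GITR) had similar levels in ILC2-like cells, at 464 CPM in NW (441 to 488, 1547 UMIs) and 524 CPM in ABX (503 to 545, 2357 UMIs), and Treg-like cells, at 541 CPM in NW (507 to 576, 958 UMIs) and 357 CPM in ABX (310.4 to 409, 208 UMIs), whose ranges overlapped. CD4+ T-like (173 and 126 CPM) and NK-like cells (151 and 148 CPM) followed. B cell-like cells had 22.5 and 21.4 CPM, and dendritic cell (DC)-like cells 35.1 and 33.2 CPM. Among the lymphocyte classes, Tnfrsf4 (OX40) was highest in Treg-like cells, at 275 CPM in NW (251 to 301, 487 UMIs) and 196 CPM in ABX (162 to 235, 114 UMIs), then in CD4+ T-like cells (54.3 and 45.5 CPM), while all other lymphocyte classes had under 8 CPM in both libraries. Tnfrsf9 (4-1BB) was highest among them in Treg-like cells, at 120.3 CPM in NW (105 to 138, 213 UMIs) and 80.7 CPM in ABX (59.3 to 107, 47 UMIs), and next in NK-like (56.9 and 48.2 CPM) and ILC2-like cells (21.9 and 30.4 CPM), all with ranges apart. Outside the lymphocytes, DC-like cells carried 18.0 and 14.0 CPM of Tnfrsf9 and 13.3 and 11.8 CPM of Tnfrsf4. Most of these UMIs lay in 1 cluster of 178 and 74 NW and ABX cells with Fscn1, Ccl22 and Ccr7, genes of migratory DCs, among its leading genes. It had Tnfrsf9 at 158 CPM in NW (138 to 179, 235 UMIs) and 216 CPM in ABX (179.8 to 258, 123 UMIs), above Treg-like cells in both libraries, and Tnfrsf4 at 93.4 CPM in NW (78.5 to 110.3, 139 UMIs) and 135 CPM in ABX (107 to 169, 77 UMIs).

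Cd40lg, the only ligand of the set, was highest in CD4+ T-like cells, at 80.9 CPM in NW (71.0 to 91.9, 237 UMIs) and 66.0 CPM in ABX (56.9 to 76.2, 187 UMIs), with an overlapping range in NKT-like cells (76.8 and 43.4 CPM). The Il18r1-led T cells (37.8 and 50.8 CPM) overlapped NKT-like cells and lay below CD4+ T-like cells. Treg-like cells had 8.47 and 17.2 CPM on 15 NW and 10 ABX UMIs. Within CD4+ T-like cells a Cd40lg UMI was found in 24.5% (NW) and 22.4% (ABX) of cells. γδ T-, NK-, ILC2-, B cell- and plasma cell-like cells all had under 5 CPM in both libraries.

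**Figure D1:**
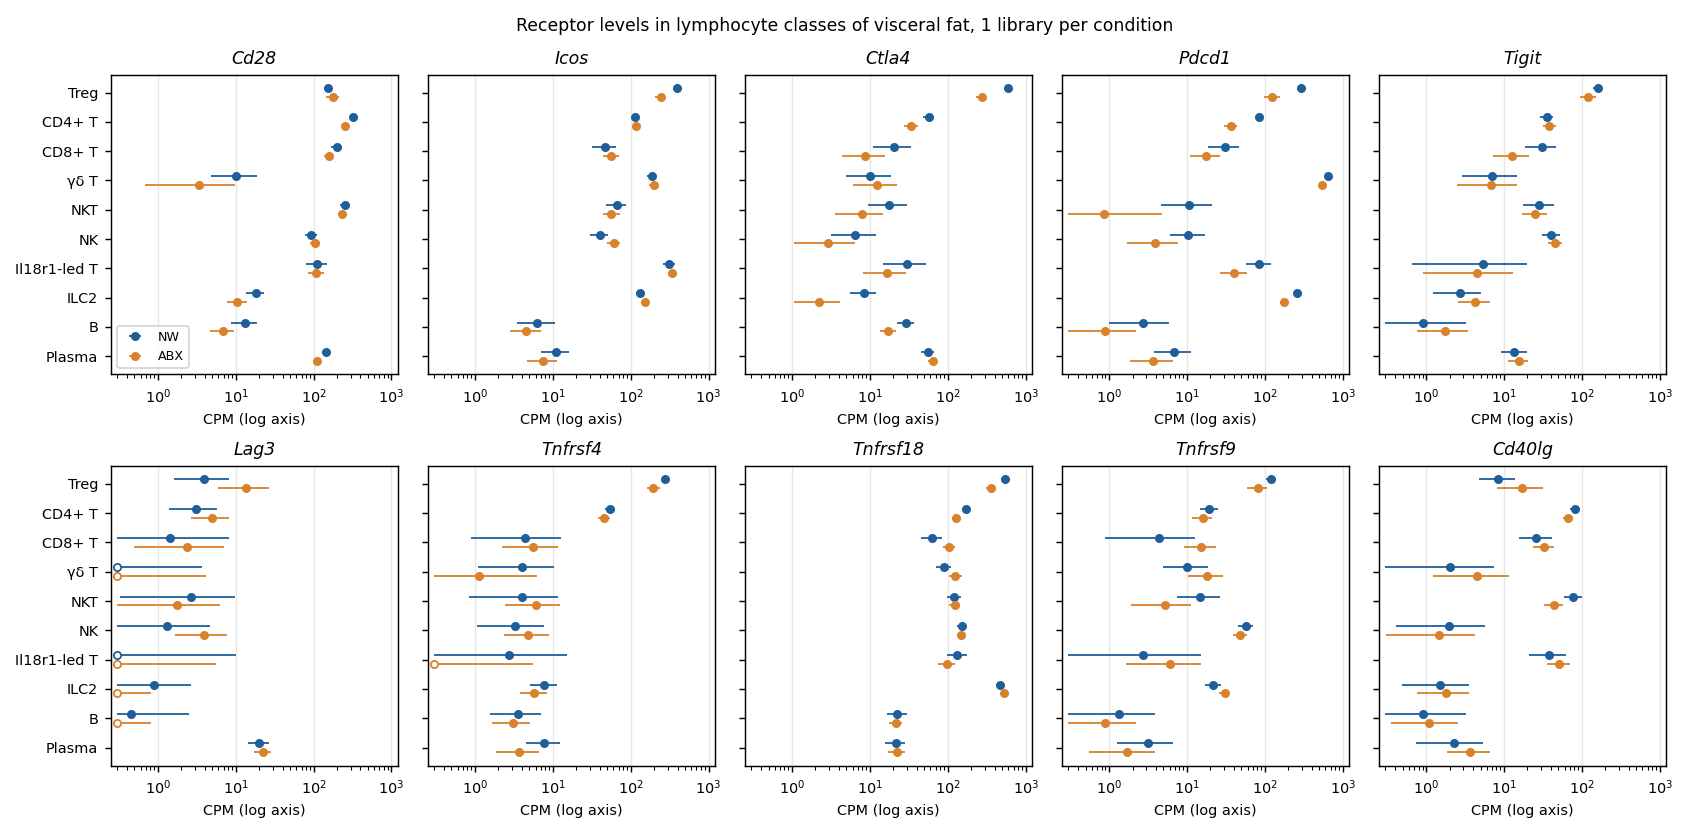
Level of each gene (CPM, log axis) in 10 lymphocyte classes of NW (blue) and ABX (orange), with exact 95% Poisson intervals as bars and open symbols for 0 UMIs, placed at the left edge. Ctla4, Tigit and Tnfrsf4 stand out in Treg-like cells, Pdcd1 in γδ T-like cells at 650.5 and 547 CPM, and Lag3 in plasma cell-like cells.

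The genes whose levels over the 9 named classes of both libraries were most like those of a receptor were listed by Pearson correlation of log2(CPM + 1) over 18 values that share 2 libraries, among 10026 genes. They were Il10 (r = 0.87) and Foxp3 (r = 0.86) for Ctla4, Tox2 (r = 0.93) and Lclat1 (r = 0.92) for Tnfrsf4, and Gata3 (r = 0.98) and Cd200r1 (r = 0.97) for Tnfrsf18. For Icos they were Acsbg1 (r = 0.96) and Cish (r = 0.96), for Pdcd1 Tnfrsf25 (r = 0.95) and Kctd17 (r = 0.94), and for Tnfrsf9 Itgav (r = 0.89) and Lamtor4 (r = 0.86). For Cd28 they were F2rl1 (r = 0.92) and Art2b (r = 0.84), for Cd40lg Trat1 (r = 0.94) and Slfn1 (r = 0.94), for Tigit Zfp260 (r = 0.79) and Slc26a2 (r = 0.79), and for Lag3 Nars (r = 0.86) and Fam46c (r = 0.85). Foxp3 is the defining transcription factor of Treg cells, Gata3 that of ILC2s and type 2 T cells, and Trat1 a T cell receptor adaptor.

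Over all cells, Ctla4 and Tnfrsf4 were lower in ABX past 1.5-fold. Ctla4 was at 23.8 CPM in NW (22.7 to 24.97, 1793 UMIs) and 11.5 CPM in ABX (10.6 to 12.3, 696 UMIs), a log2 ratio of ABX to NW of -1.06 (-1.19 to -0.93), and Tnfrsf4 at 14.8 CPM in NW (14.0 to 15.7, 1114 UMIs) and 8.41 CPM in ABX (7.70 to 9.17, 511 UMIs), a log2 ratio of -0.82 (-0.97 to -0.66). A ratio past 1.5-fold, on at least 20 UMIs over both libraries, counts as a call throughout. By this rule 2 of the 10 genes were lower and 0 higher, beside 3.30% and 17.4% of all 16410 genes, and the median log2 ratio of the 10 genes was -0.013 against 0.085 for all genes. Pdcd1 (-0.36, -0.45 to -0.27) was lower by less than 1.5-fold, and Cd28 (0.27, 0.20 to 0.34), Tnfrsf18 (0.28, 0.23 to 0.34) and Lag3 (0.57, 0.29 to 0.85) were higher by less than that. In macrophage-like cells Cd28 was at 0.86 (0.72 to 1.00) and Lag3 at 1.03 (0.49 to 1.58), both called higher. Ctla4 (-0.61, -1.17 to -0.066), Tnfrsf4 (-0.73, -1.33 to -0.15) and Tnfrsf9 (-0.72, -1.62 to 0.12) were called lower there. Icos, Pdcd1, Tigit, Tnfrsf18 and Cd40lg were within 1.5-fold. Macrophage-like cells gave the level of free RNA, whose part in the ratios of classes with few UMIs was not tested. Over the lymphocyte classes with enough UMIs, Cd28 ranged from -0.94 in B cell-like to 0.21 in Treg-like cells. It was -0.37 in CD4+ T-like cells, the lymphocyte class with the most Cd28 UMIs.

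The cells that hold each receptor's UMIs differed between the libraries. Treg-like cells carried 58.3% and 22.8% of all Ctla4 UMIs in NW and ABX, 43.7% and 22.3% of Tnfrsf4, 41.9% and 14.6% of Tigit, 27.4% and 6.22% of Icos and 26.7% and 8.55% of Tnfrsf9. Of all Tnfrsf9 UMIs, DC-like cells held 30.7% and 22.9%, ILC2-like cells 9.16% and 24.9% and NK-like cells 10.9% and 18%, among other classes. DC-like cells held more Tnfrsf9 UMIs than Treg-like cells did in both libraries, 245 against 213 in NW and 126 against 47 in ABX. Treg-like cells also numbered fewer in ABX (412 and 168). The share of plasma cell-like cells in Ctla4 UMIs went from 6.75% to 27.3%, so that in ABX they held more Ctla4 UMIs than Treg-like cells did, 190 against 159. ILC2-like cells went from 33.1% to 51.3% of Tnfrsf18 UMIs, from 17.6% to 30.1% of Icos UMIs and from 32.1% to 46.3% of Pdcd1 UMIs, while their cells numbered 758 and 1246. γδ T-like cells held 23.9% and 28.9% of Pdcd1 UMIs, and macrophage-like cells 23.9% and 28.4% of Cd28 UMIs. Cells in clusters with no class name, or in classes of few cells, held 8.03% and 7.04% of Ctla4 UMIs, and include an unnamed cluster of 55 NW and 33 ABX cells led by Foxp3 and DC genes.

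**Figure D2:**
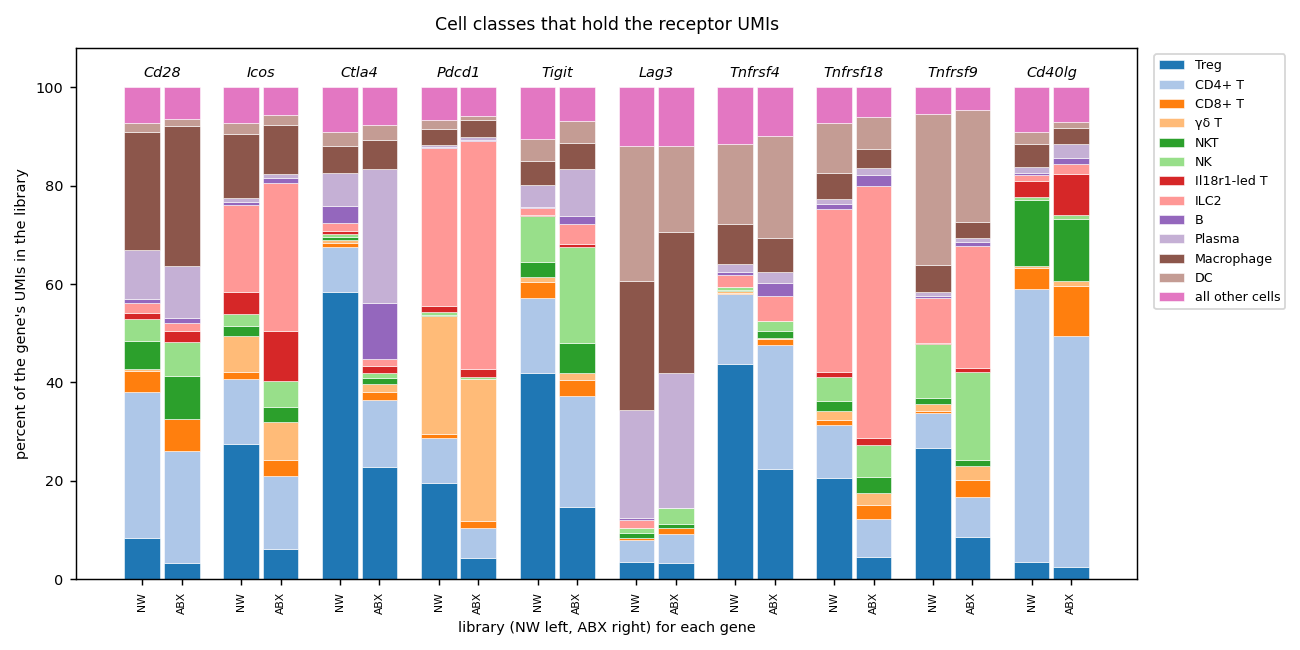
Percent of each gene's UMIs found in each cell class (stacked, summing to 100) in the NW (left bar) and ABX (right bar) library. The Treg-like part of the Ctla4 bars goes from 58.3% to 22.8% and the ILC2-like part of the Tnfrsf18 bars from 33.1% to 51.3%.

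Within Treg-like cells, Ctla4, Pdcd1, Icos and Tnfrsf18 were at least 1.5-fold lower in ABX than in NW. Of these, Pdcd1 differed most, with a log2 ratio of -1.23 (-1.61 to -0.88) at 295 and 125 CPM, followed by Ctla4, with -1.11 (-1.36 to -0.87) at 590.1 and 273 CPM. Icos was at -0.68 (-0.96 to -0.42) and Tnfrsf18 at -0.60 (-0.82 to -0.38), and the intervals of all 4 lay below 0. Tnfrsf9 (-0.58, -1.06 to -0.11), Tnfrsf4 (-0.49, -0.80 to -0.19) and Tigit (-0.40, -0.80 to -0.018) were lower by less than 1.5-fold. Cd28 was at 0.21 (-0.13 to 0.55), and Cd40lg at 1.02 (-0.30 to 2.27) on 15 NW and 10 ABX UMIs, with intervals that include 0. Of 9 genes with at least 20 UMIs, 4 were called lower and 1 (Cd40lg) higher, beside 11.1% and 11.6% of all 9097 genes. Their median log2 ratio was -0.58, against 0.020 for all genes. Lag3, at 1.7977 (0.14 to 3.49), had 7 NW and 8 ABX UMIs and was left out. The count of 4 ranged from 2 to 7 over 9 other choices of filter, clustering and scaling. In all 9 Ctla4 and Pdcd1 were lower in ABX, with log2 ratios of -1.59 to -0.76 and -1.67 to -0.99.

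The shares of Treg-like cells with a UMI of these 4 genes were also lower in ABX. Pdcd1 was found in 40.3% (NW, 35.5% to 45.2%) and 21.4% (ABX, 15.5% to 28.4%) of cells, Icos in 56.3% (NW) and 37.5% (ABX) and Tnfrsf18 in 74.0% (NW) and 51.8% (ABX) of cells. After thinning every cell to 1000 UMIs the shares were 42.5% and 25.2% for Ctla4, 20.9% and 10.6% for Pdcd1, 28.9% and 19.9% for Icos, 41.4% and 29.6% for Tnfrsf18 and 13.7% and 16.2% for Cd28. Treg-like cells held fewer kinds of receptor UMIs in ABX: 5 or more of the 10 genes were found in 39.6% (NW) and 19.0% (ABX) of cells, and none in 4.61% (NW) and 11.9% (ABX) of cells, at the unequal depth given above. Levels summed over the macrophage, B cell and DC marker lists in Treg-like cells went from 2687 to 2312 CPM, from 746 to 716 CPM and from 407 to 362 CPM, and the summed dissociation stress genes from 13806 to 10834 CPM. Their part in the receptor differences was not tested.

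ST2 marks most Treg-like cells of NW: 351 had an Il1rl1 UMI and 61 had none, against 97 and 71 in ABX. An Il1rl1 UMI was also found in 15.3% (NW) and 13.1% (ABX) of macrophage-like cells and in 6.16% and 6.50% of B cell-like cells. A split by 1 UMI can therefore place single cells in the wrong set. Median gene UMIs were 3541 in NW cells with an Il1rl1 UMI against 2689 in those without, and 2625 against 2532 in ABX. Tnfrsf18 was higher in cells with an Il1rl1 UMI, by 1.56 (1.12 to 2.04) on the log2 scale in NW (588 against 199 CPM) and by 1.57 (1.08 to 2.08) in ABX (509 against 172 CPM). Pdcd1 was also higher in them, by 2.56 (1.74 to 3.52) in NW and 0.92 (0.18 to 1.71) in ABX, and so was Ctla4, by 0.44 (0.14 to 0.76) and 1.28 (0.75 to 1.84), and Tnfrsf4, by 0.72 (0.24 to 1.23) and 0.71 (0.13 to 1.31). Icos went the other way, at -0.32 (-0.63 to -0.0048) in NW and -0.85 (-1.36 to -0.35) in ABX. The intervals of Tigit included 0, at -0.081 (-0.59 to 0.47) and 0.38 (-0.35 to 1.13). Tnfrsf9 was at 0.77 (0.039 to 1.61) and 0.018 (-0.87 to 0.92), and Cd28 at -0.67 (-1.13 to -0.20) and -0.21 (-0.79 to 0.38). Thinned shares had the same directions in both libraries for Tnfrsf18, Pdcd1, Ctla4, Tnfrsf4 and Icos, with Tnfrsf18 in 44.9% against 19.5% of NW cells with and without Il1rl1, Pdcd1 in 23.2% against 6.45%, and Icos in 28.1% against 33.8%.

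Between the libraries, the 2 kinds of Treg-like cell gave different readings for different receptors. Among cells with an Il1rl1 UMI, Icos (-1.08, -1.50 to -0.69), Pdcd1 (-1.04, -1.49 to -0.63), Ctla4 (-0.71, -1.002 to -0.44) and Tnfrsf9 (-0.64, -1.29 to -0.048) were lower in ABX past 1.5-fold, with intervals below 0. Cd40lg was called higher in them, at 0.69 (-1.12 to 2.23) on 15 NW and 5 ABX UMIs, with an interval that includes 0. These are 4 genes lower and 1 higher of 9, beside 14.9% and 13.1% of all genes. Among cells without one, Ctla4 was lower by more, at -1.56 (-2.12 to -1.01), and Icos stood at -0.56 (-0.99 to -0.13). Tigit was called lower there, at -0.69 (-1.47 to 0.067), and Pdcd1 higher, at 0.60 (-0.48 to 1.75) on 12 NW and 22 ABX UMIs, both with intervals that include 0. The count was 2 lower and 1 higher of 8, beside 15.7% and 15.1% of all genes. Tnfrsf18 was within 1.5-fold in both kinds, at -0.21 (-0.46 to 0.033) and -0.21 (-0.85 to 0.43), beside the lower share of cells with an Il1rl1 UMI in ABX. Whether the readings of the 2 kinds differ was not tested.

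**Figure D3:**
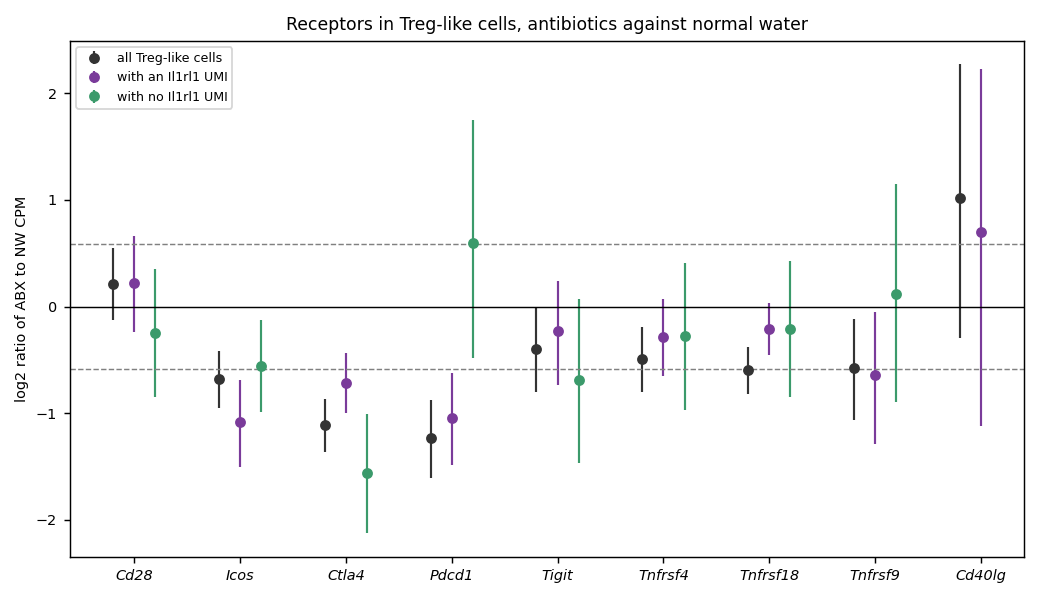
Log2 ratio of ABX to NW CPM of 9 receptors in all Treg-like cells (black), in those with an Il1rl1 UMI (purple) and in those without (green), with exact 95% intervals and dashed lines at 1.5-fold. Genes with under 20 UMIs in a set, or 0 in NW, are not drawn. Ctla4 lies below 0 in all 3 sets, and Pdcd1 in all but the cells without an Il1rl1 UMI.

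In CD4+ T-like cells, Pdcd1 and Ctla4 were lower in ABX past 1.5-fold. Some of these cells, 7.73% (NW) and 6.39% (ABX), had a Foxp3 UMI, and the class had Foxp3 at 53.3 and 51.5 CPM. The part of Foxp3+ cells in the ratios of this class was not tested. Pdcd1 was at 84.4 CPM in NW (74.2 to 95.6, 247 UMIs) and 36.3 CPM in ABX (29.7 to 44.1, 103 UMIs), a log2 ratio of -1.21 (-1.56 to -0.88), and Ctla4 was at -0.76 (-1.14 to -0.39). Tnfrsf18 (-0.46, -0.66 to -0.26), Cd28 (-0.37, -0.51 to -0.23) and Cd40lg (-0.29, -0.58 to -0.012) were lower by less. Icos (0.043, -0.18 to 0.27), Tigit (0.12, -0.29 to 0.52), Tnfrsf4 (-0.25, -0.60 to 0.090) and Tnfrsf9 (-0.29, -0.89 to 0.30) had intervals that include 0, and Lag3 was called higher, at 0.68 (-0.63 to 2.07), on 9 NW and 14 ABX UMIs. That is 2 lower and 1 higher of 10 genes, beside 6.63% and 7.12% of 10640 genes, with medians of -0.29 for the 10 and -0.015 for all. With 20 principal components in place of 30 the class held 435 NW and 527 ABX cells, and the log2 ratio of Pdcd1 turned to 0.34, that of Tnfrsf4 to 0.65 and that of Tnfrsf9 to 0.55. Among the cells of the class with an Il1rl1 UMI, 5 genes were called lower and 0 higher of 9, beside 11.1% and 8.63% of all genes. Among those without, 0 were called lower and 1 higher of 10 (Tnfrsf9, 1.11 (0.16 to 2.15), on 13 NW and 36 ABX UMIs), beside 7.71% and 7.93%. Levels summed over the B cell, macrophage and DC marker lists in CD4+ T-like cells went from 488 to 2372 CPM, from 5258 to 3560.1 CPM and from 316 to 276 CPM, and the stress genes from 11073 to 8829 CPM, and their part in these ratios was not tested.

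The 3 clusters of the class gave different ratios. A cluster of 222 and 128 NW and ABX cells with the highest TCRβ antibody count had Pdcd1 at 202 and 65.4 CPM, a log2 ratio of -1.63 (-2.16 to -1.12). In it Cd28 (-0.94, -1.25 to -0.65), Ctla4 (-1.07, -1.87 to -0.33), Tnfrsf9 (-1.09, -2.28 to -0.044) and Cd40lg (-0.76, -1.46 to -0.11) were also past 1.5-fold lower, and Tigit (0.71, 0.035 to 1.38) was higher. In the cluster of 416 and 411 cells, Pdcd1 was at 29.4 and 32.6 CPM, a log2 ratio of 0.15 (-0.42 to 0.72), and Cd28 at -0.041 (-0.23 to 0.14), while Tnfrsf4 was higher, at 0.66 (0.12 to 1.21). The cluster of 48 and 134 cells with a high CD62L antibody count, a mark of resting cells, had Pdcd1 at 14.5 and 15.4 CPM, and too few NW cells for a ratio. By ST2, Pdcd1 was at -1.19 (-1.68 to -0.72) in CD4+ T-like cells with an Il1rl1 UMI and at -0.26 (-0.83 to 0.32) in those without.

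ILC2-like cells had less Pdcd1 in ABX, at -0.57 (-0.71 to -0.43) on the log2 scale, and slightly more Tnfrsf18 (0.17, 0.081 to 0.27), Icos (0.18, 0.0088 to 0.36) and Tnfrsf9 (0.47, 0.054 to 0.90), all within 1.5-fold. Ctla4 (-1.92, -3.13 to -0.83, on 28 NW and 10 ABX UMIs) and Cd28 (-0.79, -1.37 to -0.21) were called lower and Tigit (0.64, -0.57 to 1.97) higher, all at levels under 20 CPM, and Tnfrsf4 was at -0.43 (-1.28 to 0.41). This is 2 lower and 1 higher of 8 genes, beside 6.53% and 5.21% of 10801 genes, with medians of -0.13 and 0.0047. ILC2-like cells were spread differently over the clusters in the 2 libraries: cluster 1 had 329 and 659 cells, cluster 2, with Csf2 among its leading genes, 332 and 195, and cluster 3 97 and 392. Pdcd1 was highest in cluster 2, at 324 and 258 CPM, then in cluster 1, at 243 and 168 CPM, and in cluster 3, at 101 and 143 CPM. Within clusters its log2 ratio was -0.53 (-0.74 to -0.32), -0.33 (-0.59 to -0.073) and 0.51 (0.040 to 1.004) in this order, so cluster 3 did not share the direction. Tnfrsf18 was at 0.16, 0.17 and 0.38 in the same order. In cluster 3 Tnfrsf9 was at 4.37 and 33.6 CPM, on 2 NW and 47 ABX UMIs. The summed DC, B cell and macrophage markers in ILC2-like cells went from 360.2 to 83.6 CPM, from 500.1 to 908 CPM and from 2188 to 1506 CPM, and the stress genes from 19080.5 to 16460.1 CPM. Their part in the ILC2 ratios was not tested.

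**Figure D4:**
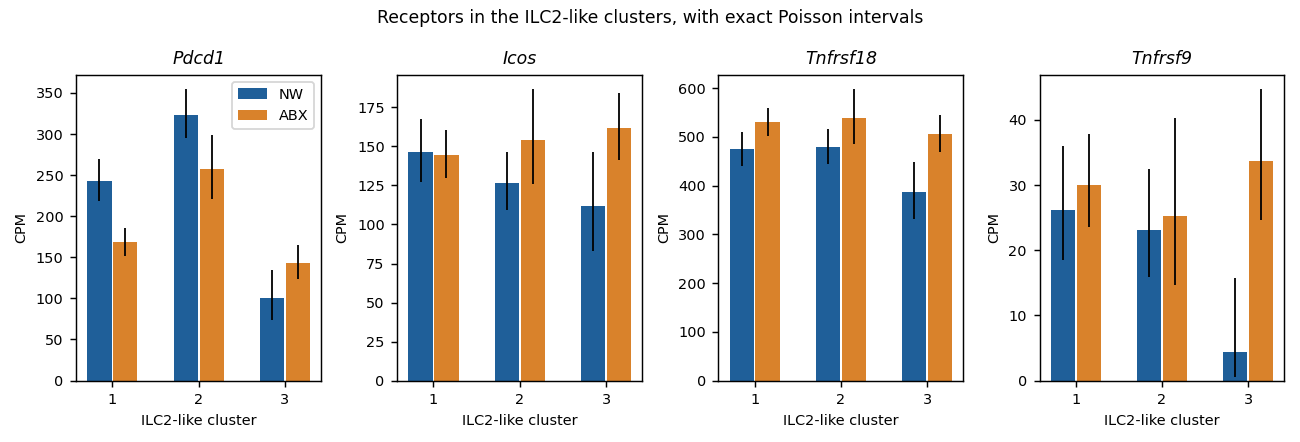
Levels (CPM) of Pdcd1, Icos, Tnfrsf18 and Tnfrsf9 in the 3 ILC2-like clusters of NW (blue) and ABX (orange), with exact 95% Poisson intervals. Pdcd1 was lower in ABX in clusters 1 and 2 and higher in cluster 3.

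CD8+ T-like cells had 3 genes called lower and 2 higher of 8, beside 8.38% and 9.95% of 8605 genes, with medians of -0.019 and 0.0060. Tnfrsf18 was higher, at 62.4 CPM in NW (45.1 to 84.0, 43 UMIs) and 104 CPM in ABX (87.4 to 124, 131 UMIs), a log2 ratio of 0.74 (0.24 to 1.28), and Tigit lower, at -1.26 (-2.29 to -0.25) on 21 NW and 16 ABX UMIs. The call for Tnfrsf9 (1.8002, 0.036 to 4.20) rests on 3 NW and 19 ABX UMIs, of which 11 came from 1 cell. Ctla4 (-1.21, -2.49 to 0.035) and Pdcd1 (-0.80, -1.73 to 0.14) were called lower on few UMIs, both with intervals that include 0. Icos (0.29), Cd28 (-0.32) and Cd40lg (0.32) were within 1.5-fold. Summed B cell markers in this class went from 3532 to 1441 CPM, and their part in the ratios was not tested.

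In γδ T-like cells Pdcd1 was within 1.5-fold, at -0.25 (-0.42 to -0.077), as were Icos (0.073, -0.23 to 0.38), Ctla4 (0.28) and Tnfrsf18 (0.49). Of 5 genes in them, 1 (Tnfrsf9, 0.82 (-0.41 to 2.12)) was called in either direction, beside 18.1% of all genes. The Il18r1-led T cells had 2 of 6 called (beside 22.0%), Pdcd1 at -1.05 (-1.85 to -0.26) and Ctla4 at -0.85 (-2.20 to 0.49), both lower. Of the 31 NW UMIs of Pdcd1 in them, 10 came from 1 cell, and Icos (0.13), Cd28 (-0.041), Cd40lg (0.43) and Tnfrsf18 (-0.45) were within 1.5-fold. NKT-like cells had 2 of 6 (beside 17.5%), Cd40lg at -0.82 (-1.40 to -0.25) and Ctla4 at -1.16 (-2.57 to 0.17), with Icos (-0.23), Cd28 (-0.11), Tigit (-0.17) and Tnfrsf18 (0.024) within 1.5-fold. NK-like cells had 2 of 6 (beside 11.0%), Icos higher, at 0.60 (0.15 to 1.07), and Pdcd1 lower, at -1.42 (-2.86 to -0.12) on 16 NW and 8 ABX UMIs. Cd28 (0.17), Tigit (0.18), Tnfrsf18 (-0.032) and Tnfrsf9 (-0.24) were within 1.5-fold in NK-like cells.

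Among antibody-lineage cells, B cell-like cells had 2 of 5 genes called (beside 17.9%), Ctla4 at -0.74 (-1.23 to -0.24) and Cd28 at -0.94 (-1.72 to -0.16), while Icos (-0.45), Tnfrsf4 (-0.23) and Tnfrsf18 (-0.068) were within 1.5-fold. In plasma cell-like cells 2 of 8 were called (beside 16.3%), both lower: Pdcd1 on 15 NW and 11 ABX UMIs and Tnfrsf4 on 17 NW and 11 ABX UMIs, with intervals that include 0. The 3 receptors that stood out in plasma cell-like cells differed little: Ctla4 was at 0.22 (-0.12 to 0.56), Lag3 at 0.15 (-0.42 to 0.73) and Cd28 at -0.36 (-0.59 to -0.13). Icos (-0.56), Tigit (0.18) and Tnfrsf18 (0.054) were also within 1.5-fold there. Whether the Ctla4 ratio differs between plasma cell-like and Treg-like cells was not tested.

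**Figure D5:**
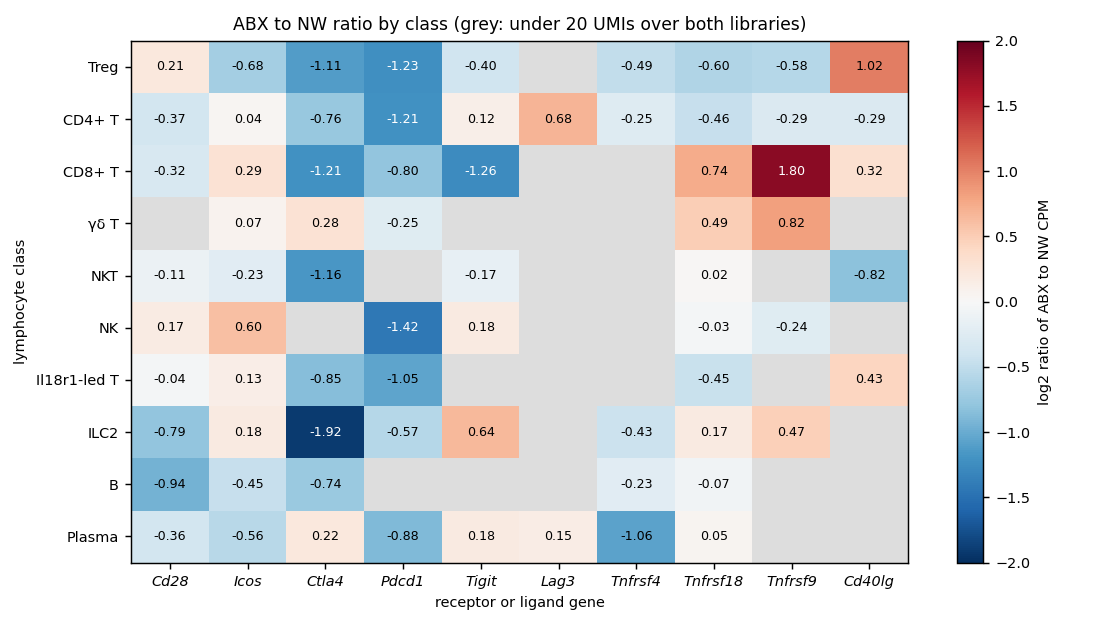
Log2 ratio of ABX to NW CPM of each gene (columns) in 10 lymphocyte classes (rows), blue for lower and red for higher in ABX, with genes under 20 UMIs in grey. Pdcd1 was below 0 in each class where it had at least 20 UMIs, and Ctla4 in each of its classes except γδ T- and plasma cell-like cells. Intervals are not drawn. Among the values below 0, they include 0 for Pdcd1 in CD8+ T- and plasma cell-like cells. For Ctla4 they include 0 in CD8+ T-like, NKT-like and Il18r1-led T cells.

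The surface antibodies, whose counts are UMIs per cell, were set beside the receptors without a test. In NW Treg-like cells with a Pdcd1 UMI the median CD25 antibody count was 37.5 against 18 in those without, and CD44 222 against 143, at median gene UMIs of 3823.5 against 3083.5. In ABX the CD25 medians were 13 against 13 and those of CD44 127.5 against 107.5, at 2989.5 against 2499.5 gene UMIs. CD4+ T-like cells with a Pdcd1 UMI also had more CD44, a mark of earlier activation, with medians of 235 against 160 in NW and 179.5 against 125 in ABX. This was not particular to Pdcd1. CD44 medians were higher with a UMI of every other gene except Lag3, which had too few cells. In NW they were 260 against 164 for Tnfrsf9 and 184 against 167 for Cd40lg. The CD4+ T-like cells with a UMI also had more gene UMIs for each of these genes. With Ctla4 the CD25 medians of NW Treg-like cells were 28 against 17, whereas with Icos they were 25 against 24. CD69 medians in NW Treg-like cells differed by at most 3 UMIs for any receptor, and depth was not matched in these comparisons.

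Other genes of these pathways came from fixed lists. Their counts in Treg-like cells stand beside 11.1% of all genes called lower and 11.6% called higher. In Treg-like cells, 2 of 8 other inhibitory receptors with enough UMIs were called lower in ABX and 3 higher, with Klrg1 at -1.13 (-1.34 to -0.93) and Cd200r1 at -1.24 (-1.71 to -0.80) against Cd96 at 1.28 (0.36 to 2.19) and Btla at 1.04 (0.30 to 1.75). Klrg1 marks mature effector cells, and Btla is an inhibitory receptor of the CD28 family. Of 8 other co-stimulatory receptors, 1 (Tnfrsf8) was lower and 0 higher. Of 13 signalling and transcription genes, 5 were lower and 2 higher, with a median log2 ratio of -0.097. The lower ones included Tox2 (-1.77, -2.39 to -1.21), Irf4 (-1.55, -2.66 to -0.60) and Nr4a1 (-0.98, -1.17 to -0.79), which is induced by T cell receptor signals. The median of this list ranged over the lymphocyte classes from -0.75 in B cell-like to 0.097 in CD4+ T-like cells. It was -0.53 in ILC2-like and -0.32 in NK-like cells.

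In CD4+ T-like cells 1 of 9 other inhibitory receptors were lower and 2 higher, and of 7 co-stimulatory ones 1 and 1. In ILC2-like cells these counts were 2 and 0 of 8, and 1 and 0 of 6. Of all genes, 6.63% were called lower and 7.12% higher in CD4+ T-like cells, and 6.53% and 5.21% in ILC2-like cells. CD4+ T-like cells had 3 lower and 2 higher of 13 signalling genes, Nr4a1 at -1.18 (-1.33 to -1.03) and Tnfaip3 at -1.12 (-1.27 to -0.98) against Tox2 at 1.46 (0.87 to 2.09) and Tox at 1.30 (0.94 to 1.68). Cd27, a co-stimulatory receptor of resting T cells, was higher, at 1.13 (0.82 to 1.43). ILC2-like cells had 6 lower and 0 higher of 13, with Nr4a1 at -1.17 (-1.23 to -1.12). The dissociation stress genes, which rise when tissue is digested, had 2 of 11 lower in Treg-like, 4 in CD4+ T-like and 4 in ILC2-like cells, with 1, 0 and 0 higher. These counts stand beside the shares of all genes given above for the same classes. The part of the stress genes in the signalling gene differences was not tested.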

How the data were processed

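The authors deposited UMI counts per cell barcode for genes and antibodies, made from BD Rhapsody whole transcriptome and AbSeq reads, and the submitters' processing notes name mm10, R 3.6.0 and Seurat 3.0.1. Raw counts, 1 table per library, were used here. Cells with at least 500 gene UMIs, at least 200 genes and at most 25% mitochondrial UMIs were kept. Libraries were clustered together in Seurat 5.3.0 (R 4.3.3) by weighted nearest neighbours of mRNA (2000 variable genes, 30 principal components) and 8 antibodies, at resolution 0.6. The 10 genes and the pathway lists were left out of the variable genes. Markers were fixed, but some naming rules were set after the clusters were seen. Scrublet (scanpy 1.11.5) called 344 NW doublets and 1 in ABX with its automatic threshold, so doublets were kept, and the 5% of cells with the highest scores were left out as an alternative. CPM, Poisson intervals of levels and of ratios, and exact binomial intervals of shares were computed in Python 3.11.15 with scipy 1.17.1, and shares also after thinning each cell to 1000 UMIs by the hypergeometric formula. A ratio needed 20 UMIs over both libraries and 50 cells in each, and a call 1.5-fold. The calculation was tested on simulated counts. The order of 2 neighbouring classes was left undecided where their CPM ranges over both libraries overlapped. All 10 genes were named in every class where they had enough UMIs for a ratio, and of the pathway genes up to 10 per class past 1.5-fold, by size. For likeness the top 2 genes were taken. Members and lists were chosen with earlier results of these data known.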

Additional observations from a re-analysis of the deposited data

Results flagged for a closer look

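For 2 receptors the ratio of ABX to NW lay past 1.5-fold in opposite directions in different classes, with intervals that exclude 0. Icos was at -0.68 on the log2 scale in Treg-like cells and at 0.60 in NK-like cells. Tnfrsf18 was at -0.60 in Treg-like cells and at 0.74 in CD8+ T-like cells. Each condition has 1 library, so the difference between the classes was not tested. All 4 values came within 1.5-fold under at least 1 other setting, with the direction kept: Icos at -0.36 and Tnfrsf18 at -0.30 in Treg-like cells with the receptors kept among the variable genes, Icos at 0.44 in NK-like cells with at most 10% mitochondrial UMIs per cell, and Tnfrsf18 at 0.55 in CD8+ T-like cells with 50 principal components. Within Treg-like cells with, or without, an Il1rl1 UMI Tnfrsf18 was at -0.21 and -0.21.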

How the results depend on the processing

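No paired analysis was possible because each condition has 1 library, and for the same reason no replicate could be left out. Of 870 values recomputed under other settings, 763 stayed within their counting interval (for counts of receptors within 1.5 times, for medians and shares of cells within a fixed log2 margin), 101 moved beyond that and 6 that lay past 1.5-fold changed sign. Of log2 values within 1.5-fold, 59 recomputed ones took the other sign, and 4 of these went past 1.5-fold: with 20 principal components Tnfrsf4 in CD4+ T-like cells (0.65), in CD4+ T-like cells by Il1rl1 Tigit with a UMI (-1.63) and Tnfrsf9 without one (1.11), and in ABX the ratio of gated Foxp3+ cells with to without Il1rl1 for Tnfrsf9 (-1.45). The number of receptors at least 1.5-fold lower in ABX Treg-like cells, 4 as reported, was 2 with 20 principal components, 7 with 50, 2 at resolution 1.0 and 2 with a mean over cells. In CD4+ T-like cells it was 1 in place of 2 with 20 principal components, and in ILC2-like cells 1 in place of 2 with a minimum of 50 UMIs. Past 1.5-fold, the sign changed for Cd40lg in Treg-like cells, to -0.66 with the receptors kept among the variable genes and -0.16 with gates in place of clusters, for Pdcd1 in CD4+ T-like cells, to 0.34 with 20 principal components, and for Tigit in ILC2-like cells, to -0.034 with 20 principal components and -0.070 with gates. In Treg-like cells with no Il1rl1 UMI, a split added after the data were seen, Pdcd1 was at 0.60. By the same split the count in CD4+ T-like cells was 5 with an Il1rl1 UMI and 0 without (0 and 1 higher), and in Treg-like cells 4 and 2 (1 and 1 higher). The cause of these changes was not tested. Over the settings chosen at the outset, log2 ratios in Treg-like cells were -1.01 to -0.36 for Icos and -0.85 to -0.30 for Tnfrsf18. Lag3 and Cd40lg in Treg-like cells rest on 15 and 25 UMIs over both libraries.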

Other observations

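The ligands of these receptors were read on the same scale. In NW and ABX, Cd86, a ligand of CD28 and CTLA-4, was at 146 and 194 CPM in macrophage-like cells, 90.6 and 96.0 CPM in DC-like cells and 43.1 and 50.7 CPM in B cell-like cells. Cd80, its relative, was at 17.2 and 15.2 CPM, 15.3 and 11.3 CPM and 19.8 and 19.9 CPM in the same classes. Icosl, the ligand of ICOS, was at 65.3 and 93.5 CPM, 166 and 196 CPM and 103 and 163 CPM, and at 126 and 156 CPM in ILC2-like cells, which also carry Icos. Cd274, which encodes PD-L1, was at 7.38 and 9.27 CPM, 18.0 and 8.76 CPM and 53.0 and 46.8 CPM.

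Of the ligands with at least 20 UMIs, 0 of 7 were at least 1.5-fold lower and 3 higher in ABX Treg-like cells, 1 and 1 of 8 in CD4+ T-like cells and 3 and 0 of 8 in ILC2-like cells. The shares of all genes called lower and higher were 11.1% and 11.6%, 6.63% and 7.12%, and 6.53% and 5.21% in the same order. In Treg-like cells Icosl was at 0.90 (0.46 to 1.34) on the log2 scale. No test was made on these values, which come from 1 library per condition.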
